A study of Homo sapiens with 2 samples.

Results

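Chromosomes 4, 13 and 18 are gene-poor human autosomes, and 9391 of the 161869 nascent strand intervals (5.80%) lay on them. Members are all intervals of the 6 deposited timing lists on these chromosomes, each name counted once from its lowest start to its highest end. Chromosome 4 held 4223, chromosome 13 held 2035 and chromosome 18 held 3133. The study sequenced nascent strand DNA from wild-type U2OS cells, a human osteosarcoma line, collected 2 hours after they were let go from a second thymidine arrest, which holds cells where G1 meets S phase. Both libraries form 1 group and were deposited as 1 intersected set, so no value below has an error between replicates. There is no other genotype or treatment, and no control library was analysed here. The reads behind an interval are unknown, and U2OS copy number, which differs along the genome of this aneuploid line, was not analysed here.

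The label was checked against the RefSeq gene table of GRCh38.p14, which gives genes per chromosome and was not used for positions. Chromosome 4 has 770 protein-coding genes, chromosome 13 has 338 and chromosome 18 has 270. Divided by the length between the first and last interval, centromere left out, this is 4.10, 3.53 and 3.62 genes per Mb. These are the 3 lowest values of the 22 autosomes, and the other 19 ranged from 4.99 to 26.4.

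Replication of a human chromosome starts at many origins, of which cells license far more than they use. Origins fire in domains that share a replication time: gene-rich, open chromatin tends to replicate early in S phase, and gene-poor, AT-rich chromatin at the nuclear periphery tends to replicate late. In nascent strand sequencing, short new DNA with an RNA primer at its end resists lambda exonuclease, and its enrichment marks where replication began. Chromosome 13 is acrocentric, meaning that its short arm is mostly repeats and ribosomal DNA; its first interval in hg19 starts at chr13:19174443, on the long arm.

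Members were unevenly spread, with the single densest window toward 1 end of each chromosome. Most other windows were thinly filled on chromosomes 4 and 13, while chromosome 18 had further dense blocks. Chromosome 13 had 21.2 intervals per Mb, the lowest of the 22 autosomes, and chromosome 4 had 22.5, the next lowest. Chromosome 18 had 42.0, which ranked 6 of 22 from the bottom and lay inside the range of the other 19 autosomes (34.7 to 187). The other autosomes averaged 76.7 ± 42.4 intervals per Mb (mean ± SD, n = 19). Low density on these chromosomes was known when they were chosen, so it is given without a test.

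Set against genes, the order of the 3 chromosomes changed. Chromosome 4 had 5.48 intervals per protein-coding gene, the fewest of the 22 autosomes, and chromosome 13 had 6.02. Chromosome 18 had 11.6, more than all but 2 of the 22 autosomes. The other 19 averaged 8.87 ± 2.31 (SD), so chromosome 18 lay above that mean by more than 1 SD and the other two lay below it by more than 1 SD.

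On chromosome 4, the first 10 Mb of the short arm held 1720 of its 4223 intervals (40.7%). The median there was 182 intervals per 1 Mb window, against 9 in the windows of the rest of the chromosome. The densest window of the short arm, chr4:7000001-8000000, held 276 intervals, of which 166 were mid early. From 10 to 20 Mb the count fell to 100 intervals, and 52.0% of those were late or very late. The long arm held 1897 intervals over 138 Mb, or 13.7 per Mb, with a median of 9.5 per window. Its densest window, chr4:185000001-186000000, held 79. The distal 5 Mb of the long arm held only 179 intervals, the fewest in the last 5 Mb of any of the 22 autosomes, where the other 19 ranged from 221 to 1340.

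On chromosome 13, the crowded part was the distal end of the long arm. From 110 Mb to the last interval it held 759 of 2035 intervals (37.3%), with a median of 133.5 per window against 7 elsewhere on the chromosome. The densest window, chr13:113000001-114000000, held 228 intervals, and the largest class in it was mid late with 110. Between 60 and 70 Mb the chromosome had 24 intervals, and between 80 and 90 Mb it had 28. None of those 28 was in the 3 earlier classes.

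On chromosome 18, the short arm was filled more densely than the long arm. The short arm had 1188 intervals, 77.5 per Mb, with a median of 77 per window (quartiles 51.5 and 97) and no empty window. Its densest window, chr18:13000001-14000000, held 152 intervals, and its sparsest held 10. The long arm had 32.8 per Mb with a median of 10 per window (quartiles 3 and 48), and 7 of its 61 windows were empty. Its densest window, chr18:77000001-78000000, held 235 intervals, of which 147 were mid late. Another block stood between 40 and 50 Mb, with 533 intervals, 69.0% of them in the 3 earlier classes.

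**Figure D1:**
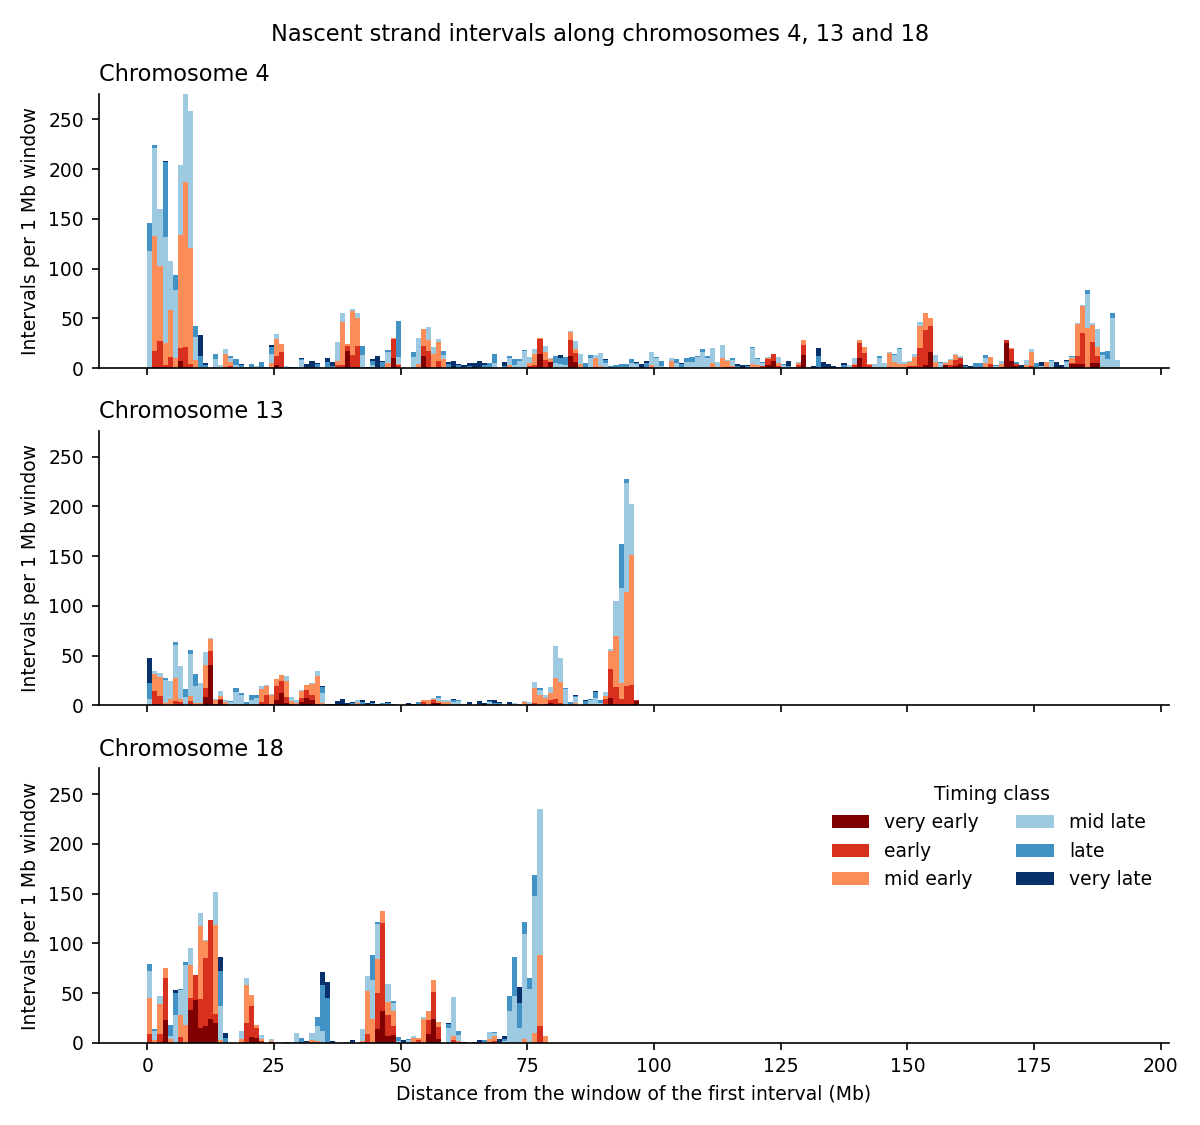
Intervals per 1 Mb window (y axis) along chromosomes 4, 13 and 18, against distance in Mb from the window of the first interval (x axis), with bars stacked by timing class. The peaks of 276, 228 and 235 intervals stand near 1 end of each chromosome, and chromosome 18 has further blocks on its short arm and between 40 and 50 Mb.

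By timing class, the set held larger shares of mid late, late and very late intervals than the other autosomes. The classes are deposited labels whose rule is unstated, and cells were collected 2 hours after release. The labels therefore do not show when an interval began to replicate in these cells. The 3 earlier classes held 4717 of 9391 members (50.2%), against 71.5% on the other autosomes. Very early intervals made up 6.47% of members (608; exact 95% binomial interval 5.98% to 6.99%) against 14.9% elsewhere, and early intervals 15.0% (1408) against 26.7%. Mid early intervals were nearly as frequent as elsewhere, at 28.8% (2701) against 29.9%. Mid late intervals made up 35.8% (3361) against 21.2%, late intervals 10.6% (995) against 5.22%, and very late intervals 3.39% (318) against 2.07%. Binomial intervals cover counting error only and take the counted intervals as independent, which neighbours of 1 domain are not.

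The 3 chromosomes reached these shares differently. Chromosome 18 had 9.06% very early intervals, well above the 4.95% of chromosome 4 and the 5.65% of chromosome 13. Its 22.6% of mid early intervals was the lowest of the 22 autosomes, whereas the 33.1% of chromosome 13 ranked 18 of 22. In mid late share they were the 3 highest of the 22, at 36.3% on chromosome 4, 37.1% on chromosome 13 and 34.3% on chromosome 18.

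The arms of chromosome 18 stood apart in timing, with 69.1% of short arm intervals in the 3 earlier classes and 40.4% of long arm intervals. On chromosome 4 the shares were 46.4% on the short arm and 52.1% on the long arm. The mid late block at the end of chromosome 18 bears on its value: from 70 Mb onward only 13.7% of 793 intervals were in the 3 earlier classes, against 64.0% on the rest of the chromosome. With 5 Mb removed at each end the share in the 3 earlier classes was 59.3% on chromosome 18, 52.7% on chromosome 4 and 50.2% on chromosome 13. These remained the 3 lowest of the 22 autosomes.

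Runs of neighbouring intervals of the same class, taken here as timing domains, were short on chromosomes 4 and 13. The 3 chromosomes held 1572 runs, with a median of 3 intervals, against 5 on the other autosomes. The median span differed less, at 32.9 kb against 38.0 kb. By chromosome it was 29.1 kb on 4, 29.0 kb on 13 and 43.7 kb on 18. The other autosomes had 37.7 ± 3.52 kb (mean ± SD, n = 19), so chromosome 18 lay above that mean. Chromosomes 4 and 13 had the 2 highest shares of runs with a single interval among the 22 autosomes, at 31.5% and 30.2%, while chromosome 18 had 19.3%, close to the 17.6 ± 5.22% of the others (mean ± SD, n = 19). Both very early and early runs had a median of 2 intervals on chromosomes 4 and 13 and of 5 on chromosome 18, and mid late runs had medians of 3, 3 and 6 on chromosomes 4, 13 and 18. Runs rest on how many intervals a domain holds as well as on its length.

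The very early run with most intervals was on chromosome 13, with 42 at chr13:30973332-31579772, a span of 606 kb. It was 1 of the 3 runs with most intervals on that chromosome. The others were mid late and lay near the distal end, with 47 intervals at chr13:113392454-113563444 and 43 at chr13:112681084-112859403. They packed 275 and 241 intervals per Mb, against 69.3 in the very early run.

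On chromosome 4 all 3 leading runs lay in the first 10 Mb. A mid late run at chr4:8683266-9017998 held 77 intervals, a mid early run at chr4:7216203-7418298 held 71, and a mid late run at chr4:563769-853583 held 69. The mid early run was the densest of the 3, at 351 intervals per Mb. On chromosome 18 the leading runs were all mid late, with 70 intervals at chr18:71675577-72672669, 63 at chr18:76527003-76815002 and 55 at chr18:76287581-76514017. The first of these was spread over 997 kb at 70.2 per Mb, while the other two held 219 and 243 per Mb.

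Class changes between neighbours skipped 2 or more classes at 10 places of 1569 changes on the 3 chromosomes, against 26 of 16461 on the other autosomes. All 10 lay across stretches of 78.5 kb to 3360 kb without an interval. The longest of these was the stretch across the centromere of chromosome 18, from very late to mid early. The widest skip in timing was at chr18:57606483-59000329, from a very early interval to a very late one across 1394 kb.

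Low density came with both a different mix of domains and fewer neighbouring pairs of intervals per Mb within domains of the same class. Territory was measured as the length between neighbouring intervals of the same class, which covered 54.9% of the length on the 3 chromosomes and 62.5% on the other autosomes. Very early territory made up 4.95% of this length on the 3 chromosomes and 13.4% elsewhere, and early territory 7.97% and 17.8%. Late territory made up 19.9% against 11.7%, and very late territory 33.4 of 197 Mb against 129 of 1460 Mb.

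Within territory of a given class the 3 chromosomes together also held fewer neighbouring pairs per Mb. Density here counts pairs of same-class neighbours, so runs of a single interval add nothing to it. Those were 28.1% of runs on the 3 chromosomes and 18.3% elsewhere. The density was 49.5 against 104 in very early territory, 70.4 against 136 in early, 65.2 against 126 in mid early, 46.3 against 74.2 in mid late, 19.3 against 37.9 in late and 7.16 against 20.2 in very late territory. Over all classes the 3 chromosomes held 39.7 such pairs per Mb of territory and the other autosomes 91.5. With the territory mix of the 3 chromosomes and the densities of the other autosomes the value would be 73.5, and with the reverse combination 48.5. Territory is measured between the intervals themselves, so neither its mix nor its density is independent of how sparse the intervals are. The part of each in the low density was not tested.

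Chromosome 18 was again unlike the other two. In very early territory it held 80.8 neighbouring pairs per Mb, rank 8 from the lowest of 22. Chromosome 4 held 28.8 and chromosome 13 held 56.4, the 2 lowest. In early territory the values were 115, 49.6 and 57.4, with the other 19 autosomes between 91.8 and 220. Chromosome 18 therefore lay inside the range of the other autosomes in both earliest classes, and chromosomes 4 and 13 lay below it. In mid early territory chromosomes 4 and 13, at 63.8 and 51.6, also lay below all the others. Mid late territory held 40.5, 45.9 and 58.1 on chromosomes 4, 13 and 18, against 35.8 on chromosome 3. Late territory held 17.6, 12.8 and 27.5, against 12.7 on chromosome 3. In very late territory they ranked 3, 2 and 10 from the lowest, and chromosome 21 was lowest. All 3 chromosomes therefore lay inside the range of the others in the 3 later classes.

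**Figure D2:**
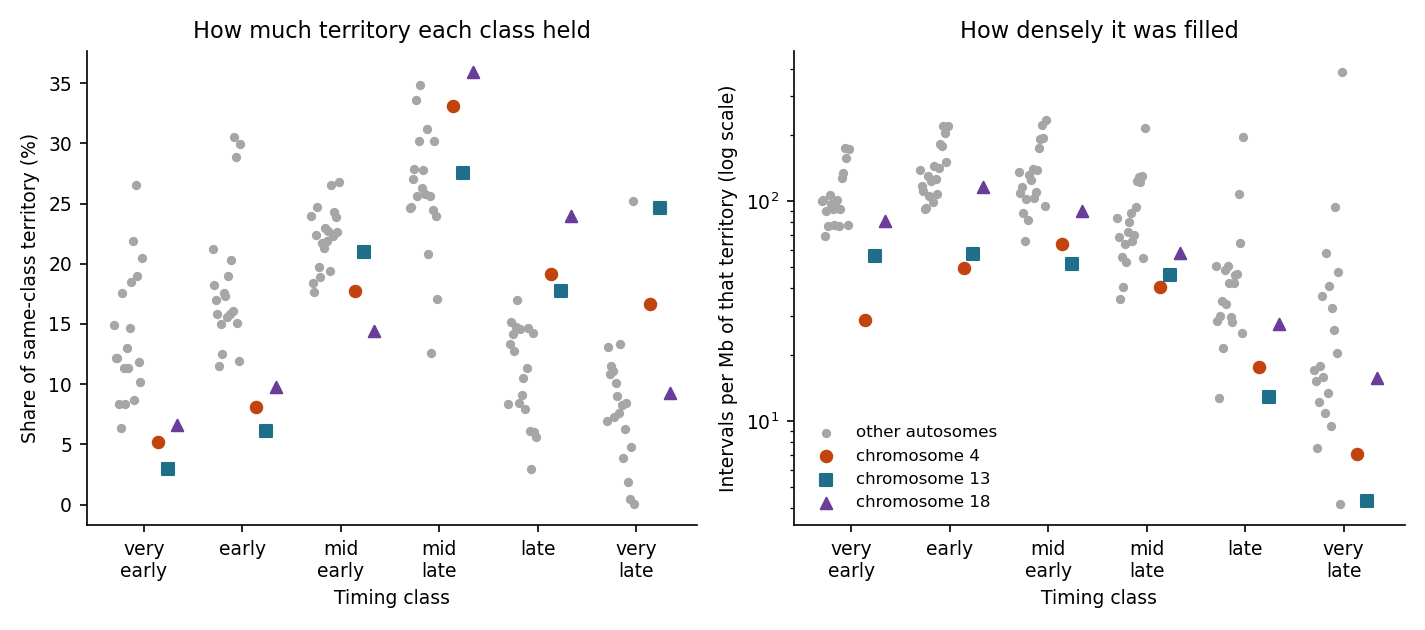
Share of same-class territory in each timing class (left, %) and neighbouring same-class pairs per Mb of that territory (right, log scale, axis labelled intervals). Each of the 22 autosomes is 1 point, with chromosomes 4, 13 and 18 marked. In very early and early territory the points of chromosomes 4 and 13 lie below all others on the right, at 28.8 and 56.4 and at 49.6 and 57.4 pairs per Mb.

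Empty stretches, of at least 500 kb between neighbouring intervals, took up more of these chromosomes than of any other autosome. They covered 19.4% of chromosome 4, 28.9% of chromosome 13 and 28.7% of chromosome 18, against 8.63 ± 5.51% on the other 19 autosomes (mean ± SD), whose highest value was 17.8% on chromosome 6. In number there were 46, 31 and 19, together 96 stretches of 85.6 Mb. Their median length was 768 kb, against 667 kb for the 303 stretches of the other autosomes. The stretch across the centromere was counted apart, 3090 kb long on chromosome 4 and 3360 kb on chromosome 18. Whether a stretch holds gaps in the build or sequence to which reads cannot be mapped uniquely was not examined here.

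The 3 longest stretches on chromosome 18 were chr18:36295157-39997397 (3702 kb, late on both sides), chr18:62036723-64794515 (2758 kb, very late on both sides) and chr18:25758347-27932705 (2174 kb, between mid late and late). The first and second were the longest on any autosome outside centromere stretches. Beside the longest lay a crowded late block, since the windows from 34 to 36 Mb held 71 and 61 intervals, all mid late, late or very late. The next 4 windows held 2, 0, 0 and 1.

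On chromosome 13 the longest stretch was chr13:67730668-70075500 (2345 kb, between late and very late), rank 4 among all autosomes. It was followed by chr13:88997915-90584759 (1587 kb, very late on both sides) and chr13:91599524-92950332 (1351 kb, between mid late and late). On chromosome 4 the stretches were more numerous and shorter, led by chr4:11808090-13385615 at 1578 kb. The next, chr4:27057133-28282002 and chr4:20757606-21950036, measured 1225 kb and 1192 kb.

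Intervals of the 3 later classes flanked most of these stretches. Of the 96, 85 (88.5%; exact 95% binomial interval 80.4% to 94.1%) had a mid late, late or very late interval on both sides, 8 had such an interval on 1 side, and 3 on neither. On the other autosomes 240 of 303 (79.2%; 74.2% to 83.6%) had one on both sides, and these intervals overlap. For scale, the 3 earlier classes held 50.2% of all members and 71.5% of intervals elsewhere. Later classes were thus already more common on the 3 chromosomes. Both sides were late or very late at 47 of the 96 stretches and at 142 of 303. On chromosome 13, 10 of the 31 stretches lay between very late intervals.

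**Figure D3:**
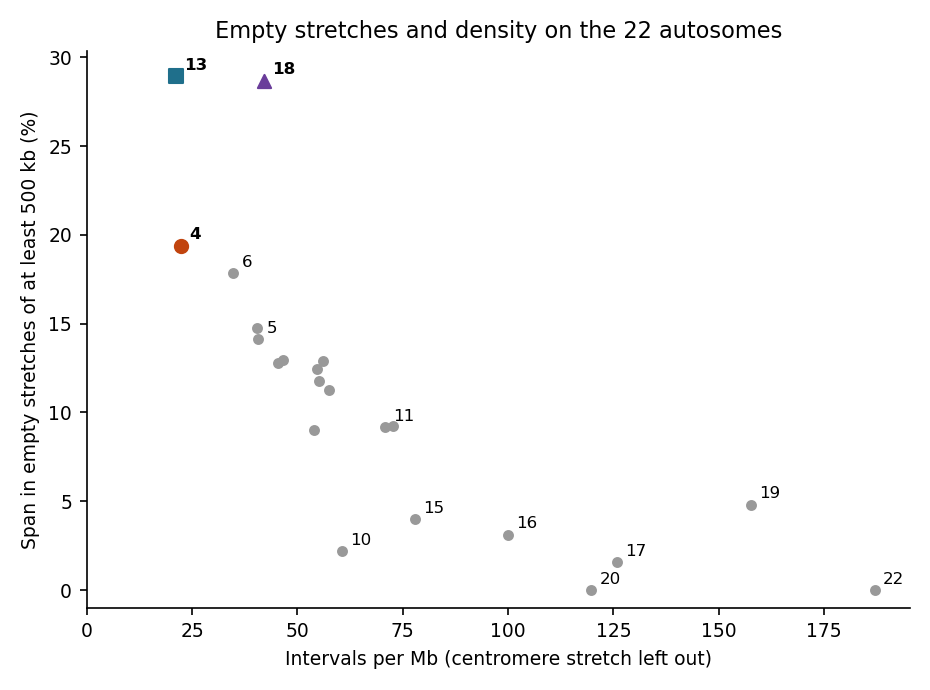
Share of the length in empty stretches of at least 500 kb (y axis, %) against intervals per Mb (x axis) for the 22 autosomes, 1 point per chromosome, centromere stretch left out; names are printed where they do not overlap. Chromosome 18 has 42.0 intervals per Mb and 28.7% in empty stretches, while chromosome 6, with fewer intervals per Mb, has 17.8%.

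Within the 2 earliest timing classes, intervals on these chromosomes were narrower than on the other autosomes. Over chromosomes, the median width of very early intervals was 443 bp on chromosome 4, 340 bp on chromosome 13 and 457 bp on chromosome 18, against 526 ± 57.8 bp (mean ± SD, n = 19), a ratio of 0.784 (exact permutation test over chromosomes, adjusted p = 0.0136). Chromosome 13 was the lowest of 22 and chromosome 4 the next, while chromosome 18 overlapped the other autosomes, of which the narrowest had 454.5 bp. The log2 difference was −0.35, and it did not pass without chromosome 13 (−0.22, adjusted p = 0.2), without chromosome 4 (−0.41, adjusted p = 0.1) or with 5 Mb removed at each chromosome end (−0.29, adjusted p = 0.195, exact permutation tests).

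Early intervals gave the clearest separation, since all 3 chromosomes lay below all 19 others. Their median widths were 425, 400 and 457 bp, and the other autosomes ranged from 470 to 762 bp around 583 ± 76.8 bp (SD). The ratio was 0.738 (exact permutation test, adjusted p = 0.00909). With these ends removed the log2 difference was −0.41, against −0.44 with them, and no longer passed (adjusted p = 0.191, exact permutation test). Omitting chromosome 4 or chromosome 13 also ended the call at nearly the same size, at −0.44 and −0.39 (adjusted p = 0.0667 and 0.133, exact permutation tests). Without chromosome 4 the unadjusted p was 0.00476 (exact permutation test), the smallest that 210 choices allow. That p alone adjusts to 0.0667 over 14 tests, so the call then depended on the other tests. Without chromosome 18 early width had the same p and passed (−0.49, adjusted p = 0.0333, exact permutation test). Very early width also had that p in this setting.

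In the 4 later classes no difference in width passed. Mid early intervals measured 517, 514 and 461 bp against 610 ± 87.5 bp (SD; ratio 0.822, exact permutation test, adjusted p = 0.0673). The ratio was 0.898 for mid late and 0.896 for late intervals (adjusted p = 0.269 and 0.224, exact permutation tests). Very late intervals measured 372, 462 and 451.5 bp, and 410 ± 78.2 bp on the 17 other autosomes with at least 20 of them (ratio 1.06, adjusted p = 0.73, exact permutation test). Averaged over the classes, the log2 difference in width was −0.22 with adjusted p = 0.0673 (exact permutation test), and all 3 chromosomes lay below the median of the others. Without chromosome ends the log2 difference was −0.37 in mid early and −0.27 in mid late intervals (adjusted p = 0.191 and 0.195, exact permutation tests). These sizes were similar to the −0.29 of very early and the −0.41 of early intervals in that setting. Late and very late intervals gave −0.14 and 0.078. In the interior, narrower intervals were therefore not particular to the very early and early classes.

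The size of the width difference itself was then compared between the earlier and the later classes. The log2 difference was lower by 0.27 in the 3 earlier classes than in the 3 later ones, in the same direction on all 3 chromosomes (exact permutation test, adjusted p = 0.0169 over 2 tests chosen after the data were examined). With 5 Mb removed at each end it was lower by 0.23 and did not pass (adjusted p = 0.0974, exact permutation test).

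Fold enrichment, the authors' value for the replicate 1 peak with most overlap, differed less. In the very early class the medians were 4.30, 4.32 and 4.41 on chromosomes 4, 13 and 18, against 4.61 ± 0.20 (SD, n = 19), a ratio of 0.943 that did not pass (exact permutation test, adjusted p = 0.0848). In the early class they were 4.40, 4.44 and 4.51 against 4.80 ± 0.22 (ratio 0.928, adjusted p = 0.0636, exact permutation test). From mid early to very late the ratios were 0.958, 0.990, 0.994 and 1.01, with adjusted p from 0.267 to 0.803 (exact permutation tests). Averaged over the classes, the log2 difference in fold was −0.046 and did not pass (adjusted p = 0.204, exact permutation test). The change of the fold difference between earlier and later classes was −0.080 on the log2 scale (adjusted p = 0.0435 over the same 2 tests, exact permutation test). Without chromosome ends this change was −0.063 and did not pass (adjusted p = 0.201, exact permutation test).

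**Figure D4:**
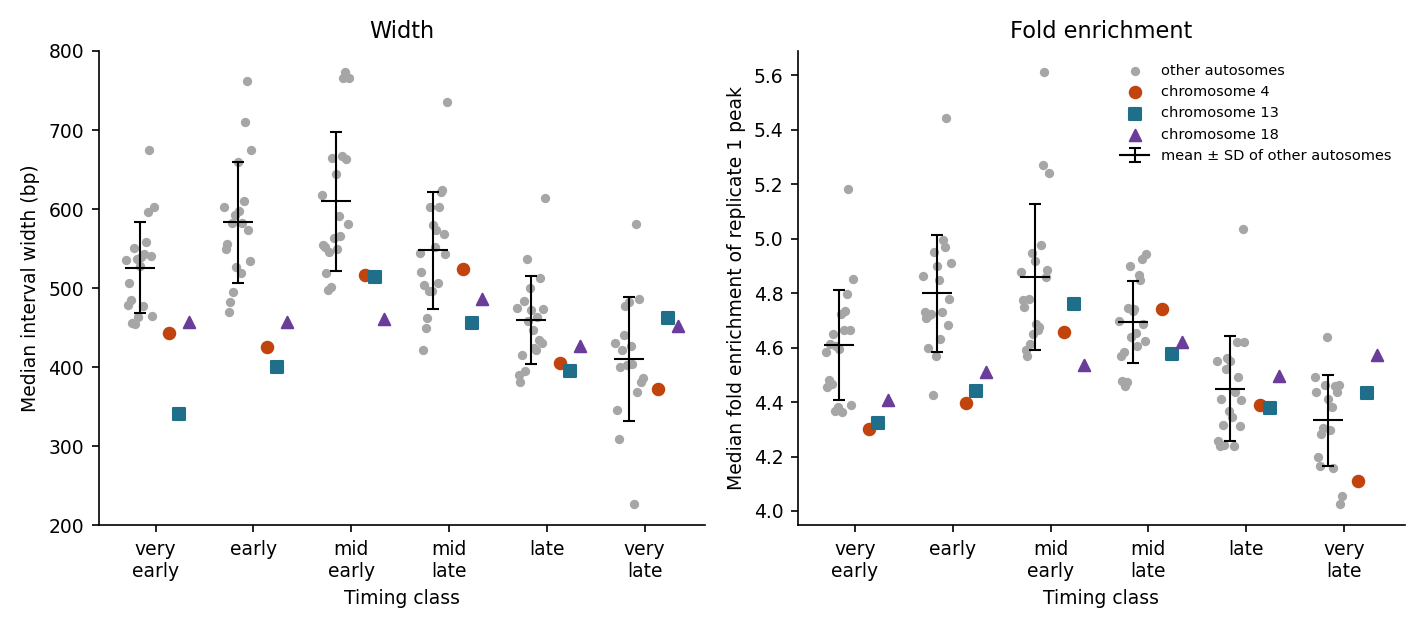
Median interval width (left, bp) and median fold enrichment of the replicate 1 peak (right) per timing class, 1 point per chromosome with at least 20 intervals in the class; bars give mean ± SD of the other autosomes, and both axes start above 0. Early widths of 425, 400 and 457 bp on chromosomes 4, 13 and 18 lie below the lowest other value of 470 bp.

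Width also changed along each chromosome. Ends are counted from the first and last interval, so the first 5 Mb of chromosome 13 are the start of its long arm. In the first and last 5 Mb the median width was 679 bp on chromosome 4, 610 bp on chromosome 13 and 536 bp on chromosome 18, and in the interior it was 438, 346.5 and 448.5 bp. The ratio of ends to interior was 1.55, 1.76 and 1.20, against 1.40 ± 0.33 on the other autosomes (mean ± SD, n = 19), and all 3 values lay inside the range of those, 0.969 to 2.22. Fold enrichment went the same way, from 4.44 in the interior to 5.19 at the ends on chromosome 4, 4.36 to 4.86 on chromosome 13 and 4.47 to 4.71 on chromosome 18.

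The contrast differed between classes on chromosome 4. Mid late intervals measured 729 bp at the ends (519 intervals) and 445.5 bp in the interior (1014), and late intervals 802 bp (122) and 369 bp (338). Early intervals measured 411.5 bp (86) and 426 bp (452). On chromosome 13 the mid late medians were 669 and 347 bp. On chromosome 18 the very early, early and very late intervals went the other way, with 275 bp at the ends (23) and 469 bp in the interior (261), 316 bp (77) and 477 bp (539), and 336.5 bp (16) and 600 bp (68). Very early intervals on chromosome 4 did too, with 338.5 bp (10) and 450 bp (199), and on chromosome 13 they measured 337.5 bp (14) and 340 bp (101). These splits were not tested.

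Peaks of 20-fold or more were about as frequent as on other autosomes, with 89 members (0.948%; exact 95% binomial interval 0.762% to 1.16%) against 0.902% elsewhere (0.855% to 0.951%). They made up 0.876% of intervals on chromosome 4, 0.983% on chromosome 13 and 1.02% on chromosome 18. Of the 89, 54 (60.7%) lay in the first or last 5 Mb, where 30.2% of all members lay. Most were mid late, with 47 of 3361 (1.40%; 1.03% to 1.86%) against 0.953% elsewhere (0.849% to 1.07%). In the mid early class the count was 15 of 2701 (0.555%; 0.311% to 0.914%) against 1.04% elsewhere (0.951% to 1.14%), and this was the class whose binomial interval did not overlap that of the other autosomes. The difference itself was not tested. In the early class the count was 17 of 1408 (1.21%) against 0.840%, and in the late class 8 of 995 (0.804%) against 0.766%. In the very early class it was 2 of 608 (0.329%; 0.0399% to 1.18%) against 0.728%. None of 318 very late members reached 20-fold, which allows a share of up to 0.943% by the rule of 3 counts and 1.15% by the exact binomial interval, against 0.740% elsewhere.

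The most enriched interval was mid late on chromosomes 18 and 4 and very early on chromosome 13. On chromosome 18 the top interval was mid late, chr18:77671028-77673349 at 234-fold, 0.344 Mb from the last interval. It was followed by chr18:74570506-74571250 (mid late, 86.1-fold) and chr18:77591997-77592668 (mid early, 50.9-fold). On chromosome 13 the top interval was very early, chr13:110076471-110076690, only 220 bp wide at 157-fold. The next were chr13:112863879-112865177 (late, 73.4-fold) and chr13:114126413-114127656 (early, 64.7-fold).

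On chromosome 4 the highest values were 89.2-fold at chr4:1200487-1201111 (mid late), 61.9-fold at chr4:166300663-166301062 (early) and 56.5-fold at chr4:1394065-1394869 (mid late). The second of these lay 24.7 Mb from the last interval, in the sparse long arm. Among mid early members the highest fold was 54.2, at chr13:113207002-113207659. Among very late members it was 17.8, at chr4:132664561-132664802.

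The widest intervals were not the most enriched. On chromosome 4 the widest was chr4:1797197-1809474 (12278 bp, mid late, 6.59-fold), on chromosome 13 chr13:113097060-113104586 (7527 bp, mid late, 11.3-fold) and on chromosome 18 chr18:14999801-15007479 (7679 bp, very late, 5.11-fold). The last lay 323.5 kb before the stretch that holds the centromere.

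The share of replicate 1 peaks kept in the shared list was also lower on chromosomes 4 and 13. The total was inferred from the numbers in peak names, first to last on each chromosome, and replicate 2 peaks were not counted. Of the numbered replicate 1 peaks, 65.6% on chromosome 4, 64.2% on chromosome 13 and 70.1% on chromosome 18 appeared in the shared list, against 71.7 ± 2.91% on the other autosomes (mean ± SD, n = 19). Chromosomes 13 and 4 had the 2 lowest values of 22, and chromosome 18 ranked 7. The median −log10 q of the peaks was 4.71, 4.65 and 4.87, against 5.27 ± 0.49 (SD). Peak strength therefore moved with retention, and its part in the low densities was not tested. The median share of an interval's bases under peaks of both libraries was 59.0%, 59.9% and 61.8%, inside the range of the other autosomes (57.5% to 63.6%).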

How the data were processed

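Nascent strand DNA of 2 libraries was mapped by the authors. BWA, MACS2 and build hg19 are listed, with no version, per the submitters' processing notes; whether a control entered peak calling is unstated in the sources used here. The deposited broad peak list gives fold enrichment (a ratio) and −log10 q per replicate 1 peak; the deposited peak score was not used. The score of the deposited timing lists is the constant 1000, and their timing rule is unstated too. Depth is unknown.

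Of 9391 members, 572 stood on 2 lines, and all 572 were among the 608 very early members. Each took the fold and −log10 q of the replicate 1 peak with the largest overlap (at least 1 bp); 9 had none. For each class and chromosome with at least 20 intervals, the log2 median on chromosomes 4, 13 and 18 was compared with that on the other 19 autosomes in an exact two-sided permutation test over all 1540 choices of 3 from 22 (smallest p 0.000649; fewer choices in the very late class). The Benjamini-Hochberg adjustment covered 14 tests: width and fold, in 6 classes and averaged over classes, each class first centred on its mean. The threshold was an adjusted p of 0.05. Chromosomes are not biological replicates: the test asks whether these differ from the others beyond the spread between chromosomes. Arms were split at the stretch across 51 Mb on chromosome 4 and 17 Mb on chromosome 18; centromere stretches on the other autosomes were found likewise, from textbook positions. Chromosome ends are the 5 Mb inside the first and last interval. On chromosome 13 the first of these is the start of the long arm, not a chromosome tip, and held 174 intervals. The same holds for chromosomes 14, 15 and 22, whose first intervals start at chr14:19108857, chr15:20104846 and chr22:16052944.

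The members and measures were chosen with earlier results of these data known. Named were the 3 intervals of highest fold and the widest on each chromosome, the highest fold of each class, the 3 longest empty stretches, the 3 runs with most intervals, and the densest window of each arm; other windows and 10 Mb bins were picked after their values were seen. Genes and sequences at these positions were not analysed here, since no table of build hg19 was used. The test was checked on simulated data. Tables were made with pandas 2.3.3 and numpy 2.4.6 under Python 3.11.15, binomial intervals with scipy 1.17.1 and plots with matplotlib 3.10.9.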

Additional observations from a re-analysis of the deposited data

Results flagged for a closer look

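Signal outside the comparisons was found in the shared peak list. The sequences gl000193 and gl000194, assigned to chromosome 4 without a position, held 12 and 13 replicate 1 peaks, with median folds of 5.05 and 4.36. On the chromosomes themselves, 31 shared pieces on chromosome 4, 8 on chromosome 13 and 9 on chromosome 18 overlapped no named interval and so have no timing class. They had median folds of 6.28, 4.72 and 4.31. They were singled out because each count is above 3, the limit for a count of 0.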

How the results depend on the processing

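Values are log2 differences, the 3 chromosomes minus the others, with p adjusted over the tests run in that setting (7 for merged intervals), from exact permutation tests over chromosomes. Very early width was past the threshold in 7 of 10 alternatives and lost it without the first and last 5 Mb (−0.29), without chromosome 4 (−0.41) and without chromosome 13 (−0.22). Early width was also past it in 7 of 10 and lost it in the same settings (−0.41, −0.44 and −0.39). With 1 of the 3 chromosomes left out fewer choices exist, and at most 210 are possible. The smallest p of the exact permutation test is then 0.00476, which over 14 tests adjusts to 0.0667 unless other tests are also low. Early width without chromosome 4 stood at this limit, so its lost call says little about that chromosome. Without chromosome 18 early and very early width both stood at it and passed (adjusted p = 0.0333, exact permutation tests).

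Mid early width passed with a −log10 q of at least 5 (−0.43), with intervals of at least 200 bp (−0.25), with intervals within 100 bp merged (−0.28), with the mean of log2 width (−0.33) and without chromosomes 17, 19 and 22 (−0.22). Width averaged over classes passed at a −log10 q of at least 5 (−0.39), merged (−0.22), with the mean of log2 (−0.25) and without chromosomes 17, 19 and 22 (−0.17). Very early fold passed at a −log10 q of at least 5 (−0.13), at 200 bp or more (−0.10) and without those chromosomes (−0.065). Early fold passed at 200 bp or more (−0.11) and without those chromosomes (−0.091), and fold averaged over classes at a −log10 q of at least 5 (−0.057). The direction was reversed only in the very late class: width at a −log10 q of at least 5 (−0.21), and fold at a −log10 q of at least 5 (−0.048), at 200 bp or more (−0.023), with the mean of log2 (−0.000137) and without chromosome 18 (−0.021). None of those passed.

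The density of chromosome 18 was 14 intervals per window, but 28 per Mb in windows of 2 Mb and 23.5 over occupied windows. Empty stretches numbered 275 at 250 kb or more, 30 at 1 Mb or more and 153 with a −log10 q of at least 5. Runs numbered 572 with at least 5 intervals. The share in the 3 earlier classes was 46.4% by bases, 51.2% by lines and 52.7% without chromosome ends on chromosome 4, 48.7% by bases, 53.4% at a −log10 q of at least 5 and 53.7% by lines on chromosome 13, and 55.1% by lines and 59.3% without ends on chromosome 18. Density and shares without ends, and shares by lines, were added after the data were examined. All members on 2 lines were very early, so counting lines raises the share in the 3 earlier classes. Of all 180 alternative values, 140 kept direction and call or stayed within their margin. The causes of the other changes were not tested. No paired analysis was possible because both libraries form 1 group and were deposited as 1 intersected set, which also prevents leaving out a replicate.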
